A study of Caenorhabditis elegans with 2 samples.

Results

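Chromatin immunoprecipitation and sequencing (ChIP-seq) of NHR-6 was examined at 10 cell cycle regulator genes of Caenorhabditis elegans, out of 19973 protein-coding genes of the nuclear genome. The 10 genes were selected on the peak lists described here together with the position of their annotated 5′ ends, and they comprise genes with an NHR-6 peak at the promoter and partners of those genes in the same pathways. All samples were whole second-stage (L2) larvae of strain OP90, whose genotype is unc-119(ed3) III with the transgene wgIs90, which expresses NHR-6 fused to eGFP, and both sexes were pooled. There were 2 biological replicates, which formed 1 group. No input or untagged library was analysed here, and the transgene's promoter and copy number are not given in the labels. Whole animals were used, so tissues were not told apart. Which cells expressed the transgene, and whether the genes were bound in dividing or in resting cells, was not measured. Read depth is unknown from the peak lists.

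NHR-6 belongs to the NR4A nuclear receptors, which bind DNA through zinc fingers, and nhr-6 is needed for the spermatheca to form. In the worm cell cycle, cyclin D (cyd-1) and cyclin E (cye-1) with their kinases drive cells out of G1, and the inhibitor cki-1 and the phosphatase cdc-14 hold cells at rest. The Rb protein LIN-35 works together with the E2F and DP factors EFL-1 and DPL-1 to control transcription of cell cycle genes. PCNA (pcn-1) is the sliding clamp of DNA replication, and cyclin B (cyb-1) with CDK-1 drives mitosis. In L2 larvae some blast cells divide while others, such as the vulval precursor cells, wait in G1.

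A gene is called bound here where a peak of the authors' optimal set had its summit in the promoter window, meaning no more than 1000 bp before or 200 bp after an annotated 5′ end. Of the 10 genes 5 were bound, cdc-14, pcn-1, efl-1, cyb-1 and lin-35. Sequence is shown for the sites at cdc-14, pcn-1, efl-1 and cyb-1, since they are the DNA that the summits mark, as the summit base of the pooled list with 100 bases on either side, read in the direction of the gene. It was taken from the RefSeq copy of WBcel235, the assembly also named ce11, and all coordinates are on this build. The single capital in the middle is the summit base, and any longer run of capitals is a match to E2F letters.
cdc-14, chrII:5593677-5593877 (minus strand): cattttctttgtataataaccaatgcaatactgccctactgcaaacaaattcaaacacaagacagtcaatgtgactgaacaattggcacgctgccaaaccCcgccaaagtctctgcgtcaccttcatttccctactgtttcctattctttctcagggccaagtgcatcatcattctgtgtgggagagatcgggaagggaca
pcn-1, chrIV:4049618-4049818 (minus strand): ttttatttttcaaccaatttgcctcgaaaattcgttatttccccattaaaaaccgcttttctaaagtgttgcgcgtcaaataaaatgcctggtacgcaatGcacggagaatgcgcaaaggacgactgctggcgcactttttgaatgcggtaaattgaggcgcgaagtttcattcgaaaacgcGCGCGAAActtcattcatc
efl-1, chrV:16965750-16965950 (minus strand): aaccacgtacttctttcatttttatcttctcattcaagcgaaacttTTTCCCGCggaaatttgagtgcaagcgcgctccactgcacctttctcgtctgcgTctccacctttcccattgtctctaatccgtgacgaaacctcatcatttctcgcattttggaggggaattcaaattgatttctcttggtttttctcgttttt
cyb-1, chrIV:10734655-10734855 (plus strand): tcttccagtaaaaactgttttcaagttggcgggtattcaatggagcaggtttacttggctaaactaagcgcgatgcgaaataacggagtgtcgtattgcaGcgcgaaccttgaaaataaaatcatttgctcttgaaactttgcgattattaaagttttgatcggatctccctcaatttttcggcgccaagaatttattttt

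Of all protein-coding genes 1186 were bound (5.94%), a share given only as background, since the members were chosen on the same peaks. The optimal set held 1662 peaks, with signals down to 52.6, and the relaxed lists (peaks and background) of the pooled data and of each replicate held 30000 each. The signal is the authors' own value for each peak, its scaling is not known, and levels were compared only within a list. At the 5 bound genes the pooled signal ran from 94.9 to 146.2 with a median of 112.5, while the median over all bound protein-coding genes was 83.7. Of the 1186 bound genes, 475 (40.1%) had a pooled signal at or above that of lin-35, the lowest of the 5. No test was made on these values, because they selected the genes.

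**Figure D1:**
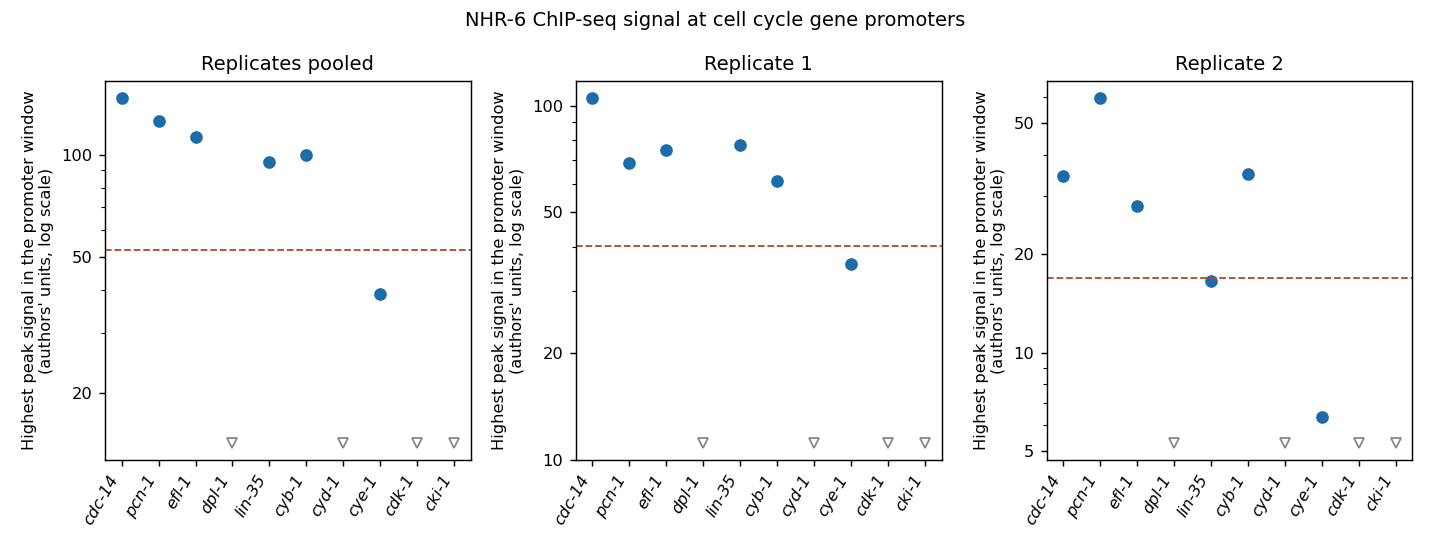
Highest peak signal in the promoter window of each gene (authors' units, log scale), for the pooled data and each replicate. The dashed line is the lowest optimal signal (52.6) in the pooled panel and the signal at rank 1662 in the replicate panels (40.2 and 16.8), and open triangles at the lowest value of a list mark genes with no listed summit in the window. The same 5 genes lie above the line for the pooled data and for replicate 1, and lin-35 lies just below it in replicate 2.

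Replicate support was found for all 5 sites. The authors derived the optimal set from the relaxed lists of both replicates and the pooled data, so such support is partly built in. A relaxed summit of each replicate lay within 100 bp of each of the 5 optimal summits, as it did for 1408 of the 1662 optimal summits (84.7%). Among the 1662 highest peaks of both replicates were 4 of the 5, against 837 of 1662 (50.4%) for the whole set. The exception was lin-35, whose peak ranked 1761 in replicate 2. The 5 sites were chosen on these peaks and ranked 219 to 536 in the pooled list, while the whole set runs to rank 1662. These shares are thus not over sites of like rank, and better replicate support at the members cannot be read from them. Replicate summits of the 5 sites were 2 to 47 bp apart, and the median over matched optimal sites was 28 bp. All 5 pooled peaks had the smallest q-value of the list (0.0004), as did 1252 of the optimal peaks (75.3%), so the q-value does not order them.

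Of the G1 inhibitors, cdc-14 was bound and cki-1 was not. The site of cdc-14, the phosphatase that helps keep precursor cells from dividing, was the highest of the 5 (II, 5593605 to 5593948, summit 350 bp upstream). Signals of 146.2 (pooled), 104.9 (replicate 1) and 34.6 (replicate 2) placed it at ranks 219, 245 and 295. The site thus held a like place in all 3 lists. A further peak in the cdc-14 window, 913 bp upstream, was listed for replicate 2 alone, at rank 21487 (signal 6.46, q = 0.523). Inside cdc-14 the pooled relaxed list held 4 more summits, with signals from 22.8 to 29.9 and q-values of 0.101 or more, none of them in the optimal set. At cki-1, the CIP/KIP inhibitor of cyclin-dependent kinases, which in the worm acts with cdc-14 to hold cells in G1, no list had a summit in the window. The nearest pooled one lay 1320 bp downstream of its 5′ end, beyond the end of the gene, with signal 30.7 at rank 4791 (q = 0.0836). Replicate 1 placed its summit at the same base with signal 27.8 at rank 3444, and replicate 2 had one 977 bp downstream with signal 9.44 at rank 8835.

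The cyclin genes of G1 showed no optimal summit in their windows either. For cyd-1, which encodes cyclin D and has 2 separate annotated 5′ ends, all lists were empty in the windows. A weak pooled summit lay in an intron, 9394 bp into the gene and 1762 bp downstream of the nearest 5′ end. Its signal was 27.6 (rank 6125), with 17.5 for replicate 1 (rank 10918) and 7.29 for replicate 2 (rank 16748). Other intron summits lay 5105 bp into the gene in the pooled list (16.5) and 5108 bp for replicate 2 (9.31, rank 9193). Replicate 1 had none there. The optimal summit nearest to cyd-1 was 35602 bp away. At cye-1, which encodes cyclin E, the window held relaxed summits in all 3 lists, with a pooled signal of 39.1 (rank 2862, 497 bp upstream), 35.8 for replicate 1 (rank 2087, 595 bp upstream) and 6.37 for replicate 2 (rank 22071, 685 bp upstream). The pooled value was below the 52.6 at which the optimal set ends, so cye-1 was the gene just outside the limit and lin-35 (94.9) the lowest inside it. The cye-1 window also overlaps that of pqn-21 on the opposite strand, and all 3 of these summits lay in both.

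A stronger cye-1 site lay outside the window. An optimal peak (I, 6781582 to 6781925) had its summit in an intron of cye-1, 955 bp into the gene, and in the promoter window of no coding gene. The pooled signal was 108.7, that of replicate 1 was 92.7 and that of replicate 2 was 13.4, at ranks 409, 313 and 3165. It was thus higher in the pooled list than the cyb-1 and lin-35 sites. Its ranks lay farther apart in the replicates than those of any of the 5 promoter sites, while its summits in the replicates were 5 bp apart. In replicate 2 its q-value was 0.0166, and it was not among the 1662 highest there. Among the 10 genes, cye-1 was the only one with an optimal summit inside the gene beyond the window.

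**Figure D2:**
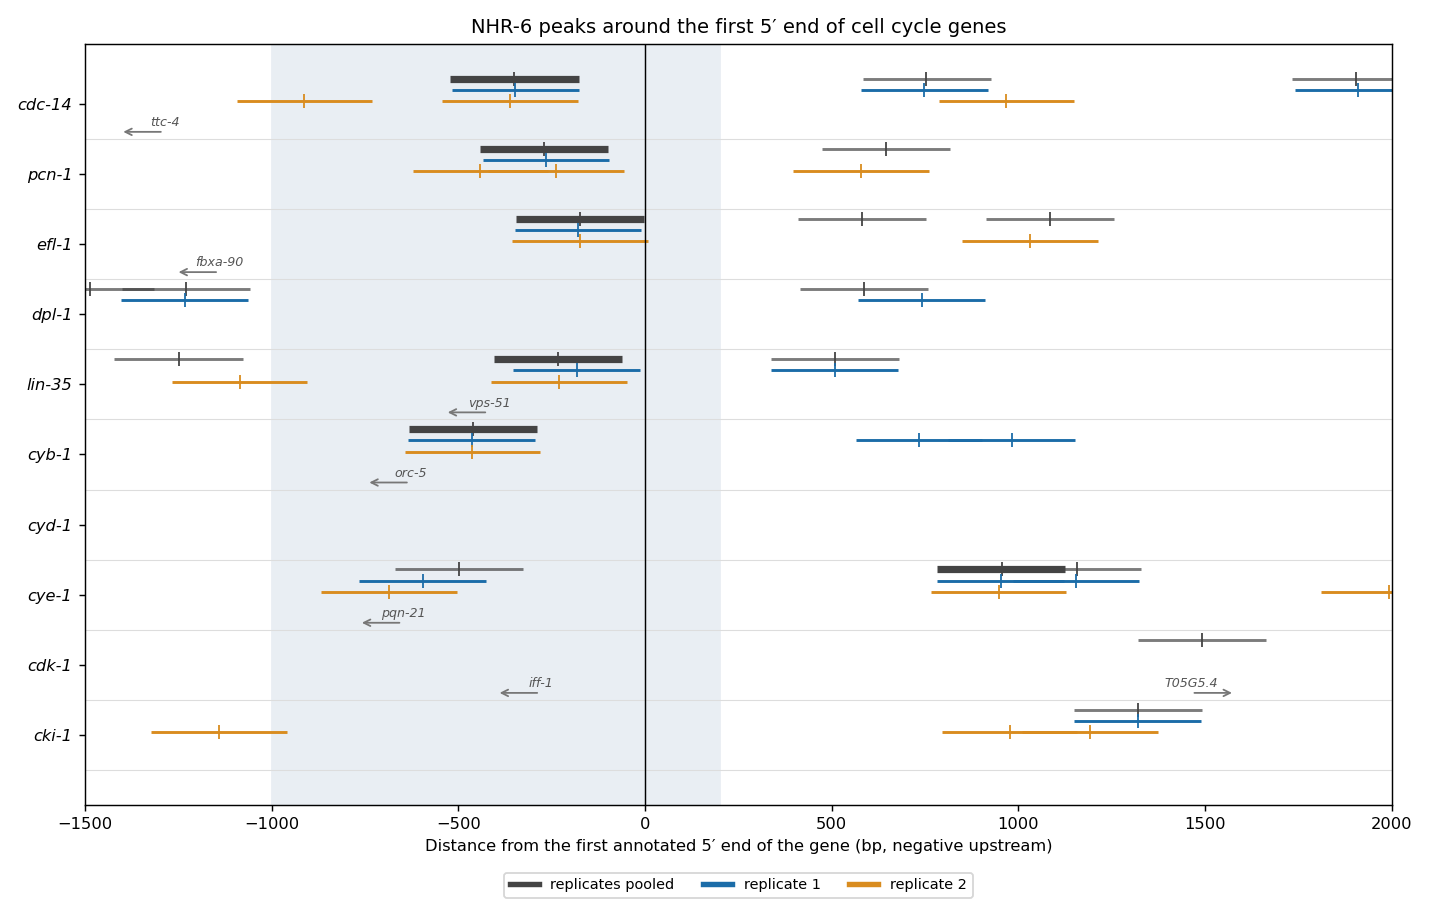
Peaks of each list around the first annotated 5′ end of each gene (bp, negative upstream), with a tick at each summit; thick bars are optimal peaks and the shaded band is the promoter window. Arrows show the first 5′ end and direction of neighbouring protein-coding genes. Thick bars sit 175 to 461 bp upstream of 5 genes and in the cye-1 intron, and cyd-1 has no peak in the stretch drawn.

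Of the E2F and Rb genes, efl-1 and lin-35 were bound and dpl-1 was not. At efl-1, which encodes an E2F factor, the summit lay 175 bp upstream (V, 16965678 to 16966021), with a pooled signal of 112.5, 74.9 for replicate 1 and 27.9 for replicate 2. These values ranked 375, 491 and 525, and both replicates placed the summit within 5 bp of each other. At lin-35, the worm Rb gene, the summit lay 232 bp upstream (I, 5807305 to 5807648), with signal 94.9 pooled, 77.2 in replicate 1 and 16.5 in replicate 2. Its rank was 466 in replicate 1 and 1761 in replicate 2, where the q-value was 0.00369, and its replicate summits were 47 bp apart, the widest gap of the 5. A gap at least as wide was found at 461 of the 1408 matched optimal sites (32.7%). A weaker peak followed 509 bp inside lin-35, in an intron and also in the vps-51 window (pooled signal 34.4, rank 3733, q = 0.0382). Replicate 1 listed it too (signal 23.7, q = 0.0651), while replicate 2 had no summit there. In the window of dpl-1, whose DP protein pairs with EFL-1, no list had a summit. The nearest pooled summit was 588 bp inside the gene, in a coding exon, with signal 15.9 at rank 24322, not far above the list's lowest value of 14.3. The nearest one in replicate 1 had signal 12.2, and replicate 2 had none nearer than 6525 bp.

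Of the replication and mitosis genes, pcn-1 and cyb-1 were bound and cdk-1 was not. The pcn-1 summit lay 270 bp upstream (IV, 4049546 to 4049889), with a pooled signal of 125.4, 68.9 for replicate 1 and 59.6 for replicate 2. It ranked 290 pooled, 585 in replicate 1 and 74 in replicate 2, and so stood higher in replicate 2. Of the 1408 matched optimal sites, 804 (57.1%) ranked higher in replicate 1. A further pcn-1 peak, 441 bp upstream, was listed for replicate 2 alone (signal 10.1, rank 7211, q = 0.139). The cyb-1 summit lay 461 bp upstream (IV, 10734583 to 10734926), with signal 99.7 pooled, 61.2 in replicate 1 and 35.0 in replicate 2, at ranks 490, 768 and 288. Like pcn-1 it stood higher in replicate 2, and its replicate summits were 2 bp apart. At cdk-1, the mitotic kinase gene that partners with cyclin B, no list had a summit in the window. The nearest pooled summit was 1493 bp downstream, in the window of T05G5.4, at rank 29999 of 30000.

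**Figure D3:**
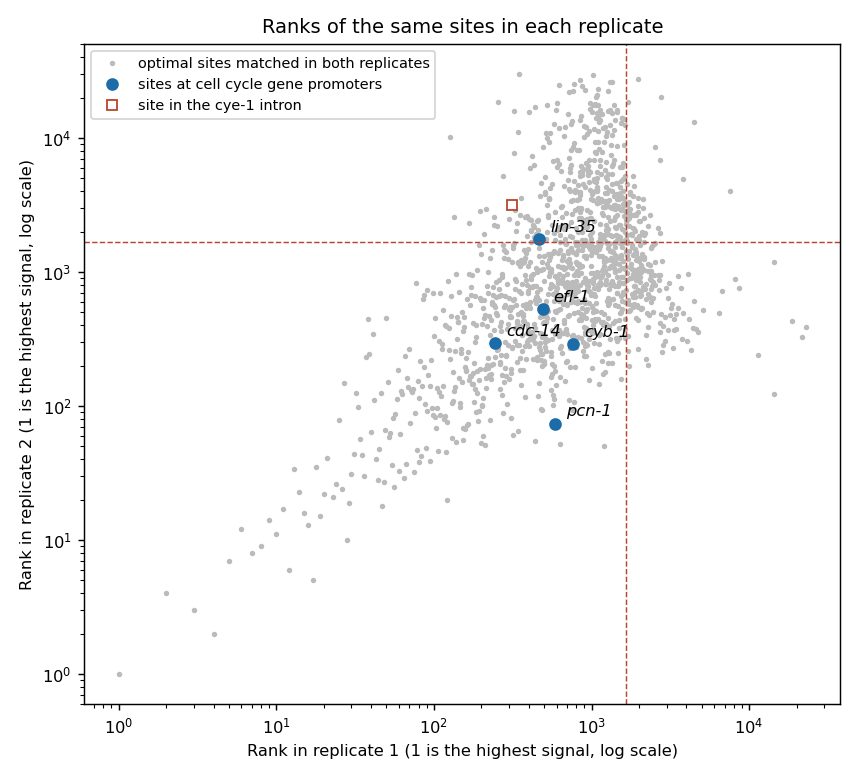
Rank of each optimal site in replicate 1 (x axis) and replicate 2 (y axis), both on log scales with 1 as the highest signal; grey points are the 1408 sites matched in both replicates and dashed lines mark rank 1662. The cdc-14, efl-1, cyb-1 and pcn-1 sites fall within both limits, while lin-35 (rank 1761) and the cye-1 intron site (rank 3165) lie above the limit of replicate 2.

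With the relaxed lists in place of the optimal set, cye-1 joined the 5 bound genes and the other 4 stayed without a summit. The count was 6 of 10 in each of these lists (pooled, replicate 1, replicate 2), where 41.3%, 40.1% and 41.2% of all protein-coding genes had a summit. A relaxed summit of each replicate was present for the same 6, against 25.0% of protein-coding genes. A q-value limit of 0.01 in each replicate left the 5 bound genes and 5.41% of protein-coding genes. A missing entry says only that no peak reached the lowest signal of that list, which was 14.3 (pooled), 11.2 (replicate 1) or 5.31 (replicate 2).

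All 5 promoter sites were intergenic, and 4 of them lay between genes on opposite strands. Of the 928 optimal summits in promoter windows, 281 (30.3%) were in the windows of more than 1 protein-coding gene. Counted by bound gene, as the 5 sites are, the share was 577 of 1186 (48.7%). The cdc-14 summit was also 937 bp upstream of ttc-4, and the efl-1 summit 964 bp upstream of the F-box gene fbxa-90, in each case farther than from the cell cycle gene. The lin-35 summit was nearer to vps-51, a gene of vesicle tethering (186 bp against 232 bp). The cyb-1 summit was nearer to orc-5, which encodes a subunit of the origin recognition complex (167 bp against 461 bp), so this site lies between 2 cell cycle genes. The pcn-1 summit was in no other window. Giving each summit only to the nearest 5′ end left 3 of the 10 genes bound, cdc-14, pcn-1 and efl-1, and 4.44% of protein-coding genes. Which gene of a pair a site acts on was not measured.

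Letters of nuclear receptor and E2F sites were searched on both strands around the summits. The receptor half-site AGGTCA, which is also the end of the NR4A element AAAGGTCA, was in none of the 5 windows reaching 50 bp to either side of the summit, and in 48 of the 1662 optimal windows (2.89%). Within 100 bp on either side it was again in none of the 5 and in 102 of 1662 (6.14%). The E2F letters searched were TTTCGCGC, TTTGGCGC, TTTCCCGC and TTTGCCGC. They were in none of the 5 narrower windows (44 of 1662 optimal windows, 2.65%) and in 2 of the 5 wider ones (93 of 1662, 5.60%). The pcn-1 match, GCGCGAAA at positions 183 to 190 of the sequence above, is TTTCGCGC on the other strand, 188 bp upstream of the 5′ end. The efl-1 match is TTTCCCGC at positions 47 to 54, 229 bp upstream. The cye-1 intron site had neither kind of letters within 100 bp of its summit. A match is no more than shared letters, and its absence covers only these windows and these exact letters.

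Over the whole window of 1201 bp from the first 5′ end, the half-site was present at 6 of the 10 genes, pcn-1, dpl-1, cyb-1, cyd-1, cye-1 and cki-1, and at 26.7% of all protein-coding genes. E2F letters were present at 5 of the 10, pcn-1, efl-1, cyd-1, cye-1 and cdk-1, and at 16.5% of protein-coding genes. The full element AAAGGTCA was at cye-1 alone, 452 bp upstream, and at 3.88% of protein-coding genes. Genes with the half-site or with E2F letters were thus found both among the bound and among the other members. G and C made up 32.7% of the bases within 50 bp of the lin-35 summit, 38.6% at cyb-1, 46.5% at cdc-14, 48.5% at pcn-1 and 52.5% at efl-1, with a median of 44.6% over the optimal summits.

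In a wider set of 105 cell cycle genes listed by role, the 10 members included, 21 were bound (20.0%), through 20 summits. Without the 10 members 16 of 95 were bound (16.8%). These still include orc-5, bound only through the cyb-1 summit, so the count is not free of the sites that selected the members. The set was drawn up with earlier results of these data known, so these counts are descriptions beside the 5.94% of all protein-coding genes. All 21 had a relaxed summit of each replicate within 100 bp of the optimal summit, as had 1070 of the 1186 bound protein-coding genes (90.2%). At emb-30 the 2 replicate summits lay on either side of the pooled one, 145 bp apart, and so were not within 100 bp of each other. For 13 of the 21 (61.9%) the site was among the 1662 highest of both replicates, close to the 703 of 1186 (59.3%) over all bound genes. It was among the highest of replicate 1 alone for 6 genes, of replicate 2 alone for 1 (emb-30) and of neither for 1 (atm-1).

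The genes of E2F, Rb and the DREAM complex, a repressor of cell cycle genes that contains LIN-35, EFL-1 and DPL-1, had 5 of 10 bound, the highest share of the 7 roles when a summit counts for every gene whose window holds it. Besides efl-1 and lin-35 these were lin-54, which encodes the DNA-binding subunit, lin-53, an RbAp46/48 homologue, and lin-9. The lin-54 site had a pooled signal of 266.8, 202.9 for replicate 1 and 63.1 for replicate 2 (IV, 13240617 to 13240765), and its summit was 36 bp upstream of the ribosomal protein gene rpl-12 and 357 bp upstream of lin-54. The lin-53 site had signal 169.5 pooled, 118.5 in replicate 1 and 53.5 in replicate 2, and was nearer to nra-2 than to lin-53 (212 bp against 255 bp). The lin-9 site, in no other window, had signal 119.1 pooled, 85.6 in replicate 1 and 35.3 in replicate 2, 160 bp upstream. With the nearest 5′ end only, efl-1 and lin-9 remained of the 5, and this role no longer had the highest share (2 of 10, against 2 of 9 for inhibitor and phosphatase genes).

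**Figure D4:**
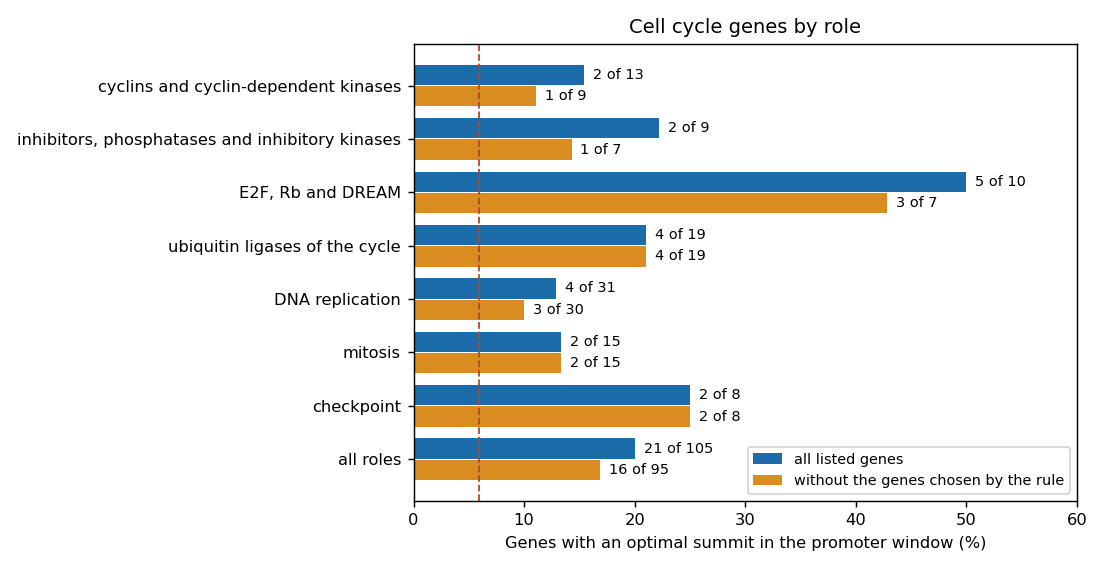
Share of genes with an optimal summit in the promoter window (%), by role. Bars are for all 105 listed genes and without the 10 genes chosen by the rule. The second kind still counts orc-5 under DNA replication, bound through the summit it shares with cyb-1. The dashed line is the 5.94% of all protein-coding genes. Every role lies above the line, and E2F, Rb and DREAM genes have the highest share (5 of 10, or 3 of 7 without the chosen genes), which falls to 2 of 10, below the 2 of 9 of inhibitors and phosphatases, when a summit counts only for the nearest 5′ end.

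DNA replication genes had 4 of 31 bound. Apart from pcn-1 and orc-5 these were rfc-4, a subunit of the clamp loader (pooled signal 287.9, replicate 1 217.3, replicate 2 71.1), and cdc-6, a licensing factor of replication origins (pooled 134.6, replicate 1 66.4, replicate 2 67.9). The rfc-4 summit lay 175 bp upstream of that gene, 366 bp upstream of the elongation factor gene eef-1A.1 and within the microRNA gene cel-mir-5549. The cdc-6 summit was nearer to acin-1 (96 bp against 283 bp). Like pcn-1, cdc-6 ranked higher in replicate 2 (52) than in replicate 1 (632).

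Ubiquitin ligase genes had 4 of 19 bound, among them 3 subunit genes of the anaphase-promoting complex. These were emb-1 (pooled signal 103.8, 762 bp upstream, and 43 bp upstream of K10D2.5), gfi-3 (75.1, 151 bp upstream) and emb-30 (59.0, 35 bp downstream of the 5′ end, in a coding exon). The fourth was lin-23, an F-box gene that limits cell division in the worm (60.3, 969 bp upstream), which ranked 1084 in replicate 1 and 4980 in replicate 2 (q = 0.0614). The lin-23 summit was nearer to the non-coding RNA gene linc-27, lying 457 bp upstream of it. Mitosis genes had 2 of 15 bound, the securin gene ify-1 (160.0, a site shared with the ribosomal protein gene rpl-22) and the spindle checkpoint gene mdf-2 (56.2, shared with nduv-3). The mdf-2 site ranked 1615 in replicate 1 and 3495 in replicate 2 (q = 0.0225). DNA damage checkpoint genes had 2 of 8, mrt-2 (72.0) and atm-1 (56.7, shared with F56C11.3). Ranks were 877 in replicate 1 and 4551 in replicate 2 (q = 0.0513) for mrt-2, and 1892 and 2026 for atm-1. Cyclin and kinase genes had 2 of 13, cyb-1 and cdk-7, the gene of the kinase that activates other cyclin-dependent kinases (97.5, 30 bp upstream, rank 412 in replicate 1 and 2062 in replicate 2). Inhibitor and phosphatase genes had 2 of 9, cdc-14 and wee-1.3, which encodes an inhibitory kinase of CDK-1 (59.5, rank 1511 in replicate 1 and 2923 in replicate 2). The wee-1.3 summit lay 390 bp upstream of that gene and 85 bp upstream of the piRNA gene 21ur-12807.

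Of the 21 bound genes, 13 (61.9%) shared their summit with the window of another protein-coding gene, against 577 of all 1186 bound genes (48.7%). The nearest coding 5′ end was that of the gene itself for 14 of the 21 (66.7%) and for 882 of the 1186 (74.4%). The highest signals of the wider set, at rfc-4, lin-54, lin-53 and ify-1, were all at shared sites, 3 of them with a ribosomal protein or elongation factor gene. The part of such neighbours in these counts was not tested.

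The bound protein-coding genes most like cdc-14 in the log2 signals of both replicates, out of 1069 compared, were ttc-4, which has the same summit, and sec-61.B and trap-3, which share another one (IV, summit 2389160). That site had signal 140.2 pooled, 103.7 in replicate 1 and 34.7 in replicate 2, a distance of 0.016 on the log2 scale from cdc-14. With only 2 replicates this likeness describes signal strength and nothing more.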

How the data were processed

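ChIP-seq peak lists of 2 biological replicates were used, with replicate numbers from the labels. Per the file list deposited with each sample, the authors made relaxed peak lists from each replicate and from both together, and from these 3 derived the optimal set with the irreproducible discovery rate. Which aligner and peak caller were used, and at what threshold, the sources used here do not state. The deposited lists hold the authors' signal for each peak, its q-value as −log10, and the offset of its summit. Only the ce11 lists were used, with gene models of Ensembl release 115 (WBcel235) and RefSeq sequence.

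Summits were assigned to every gene whose window held them, and summits within 100 bp were called the same site. The 10 genes, the wider lists and the named genes (all 10, every bound gene of the wider lists, genes sharing a summit, and 3 most like the highest) were chosen with earlier results of these data known, so no test was made. Assignment and matching were tested on simulated peaks. Alternatives were other windows, match distances and gene assignments, q-value limits, the upper 831 optimal peaks, and either replicate alone (its 1662 highest peaks). Python 3.11.15 was used.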

Additional observations from a re-analysis of the deposited data

How the results depend on the processing

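Of 23 alternative settings over 5 counts, 22 left the count within 1.5 times its value and 1 did not. Some of the 22 could not have moved, so this tally is no measure of robustness. A half-site count of 0 stays 0 in a narrower window or for the longer AAAGGTCA. Likewise, 5 of 5 matched sites stay matched at 200 bp. Wider counts of 14 against 21 lie at the limit itself. That one gave each summit only to the gene with the nearest 5′ end and lowered the bound members from 5 to 3, because the lin-35 and cyb-1 summits are nearer to vps-51 and orc-5. With 1 replicate left out, 4 to 5 members were bound, lin-35 being lost without replicate 1, and 14 to 19 of the 105 wider genes against 21. The wider count was 14 with the nearest 5′ end only and 14 in the upper 831 optimal peaks, and 24 with the window from 2000 bp upstream. Members with a relaxed peak in both replicates numbered 5 to 7. Replicate support covered 4 to 5 of the 5 sites, and the half-site stayed at 0. No paired analysis was possible because both samples belong to 1 group. Unknown read depth, the missing comparison with an untagged strain, and 2 replicates limit these counts.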
